A study of Mus musculus with 10 samples.

Results

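The genes described are Usp7 and 9 genes whose protein products USP7 deubiquitinates or binds: Trp53, Mdm2, Mdm4, Daxx, Trim27, Dnmt1, Uhrf1, Rad18 and Clspn. They were chosen by name, from what is known of the proteins, and with earlier results of these data known. Each was found in the count table by its Ensembl identifier, so that 10 of the 35375 features are described. All 10 passed the filter on low counts, which 19511 features passed. The data were RNA-seq read counts of thymus, taken 3 days after birth from C57BL/6J mice and depleted of ribosomal RNA before stranded library preparation. In the hematopoietic cells Usp7 was deleted on both alleles (homozygous KO, n = 3) or on 1 allele (heterozygous KO, n = 3), and 4 libraries were wild type (n = 4). Of the wild types, 2 are described as carrying an induced cre, the recombinase that deletes the gene, and 2 as having none, without a statement of which library is which. The driver of the cre, the deleted exons and the genotype of the thymic stroma, which does not belong to the hematopoietic system, are not given in the sources used here. The labels give each library its own number but do not say in words that each came from a separate animal, so p-values measure the spread between these libraries.

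USP7 is a deubiquitinase, an enzyme that removes ubiquitin from other proteins and thereby changes their stability or activity. Its best known partners are the ubiquitin ligase MDM2 and the MDM2 substrate p53, both of which it can deubiquitinate, so that loss of USP7 leads to less MDM2 protein and more p53 in many cells. Other partners maintain DNA methylation (DNMT1 and UHRF1) or act at replication forks (RAD18 and claspin), and TRIM27 is a ubiquitin ligase that USP7 stabilises. In the developing thymus, where T cell precursors divide rapidly and rearrange their receptor genes, p53 limits the survival of cells with damaged DNA. The counts measure RNA, and no protein was measured in these libraries.

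Homozygous KO libraries held 92.3 to 122 M counts, heterozygous KO libraries 90.5 to 97.4 M and the shallowest, wild-type ones 39.8 to 86.4 M. At these depths the gene of the 10 with the fewest reads, Rad18, had 2151 counts or more in every library. Levels are given as CPM (counts per 1 M counts of the library, scaled by TMM), and a gene is said to have risen or fallen where edgeR's quasi-likelihood test gave a Benjamini-Hochberg adjusted p under 0.05 over all 19511 features. The summed level of 12 thymocyte markers was 12395 to 12670 CPM in homozygous KO, 13648 to 14505 CPM in heterozygous KO and 13752 to 15423 CPM in wild type. Of the 12, 2 rose and 1 fell in homozygous KO against wild type, where 12.5% of all features rose and 13.2% fell. None of the 12 was at 3 counts or fewer. Markers of other cells differed between the groups. All 6 B cell markers fell in homozygous KO against wild type, with a summed level of 6.37 to 8.92 CPM against 34.2 to 55.8 CPM, and Ms4a1 and Igkc had 3 counts or fewer in homozygous KO. Of 6 myeloid and dendritic cell markers 5 fell (52.8 to 101 against 129 to 175 CPM), and all 6 neutrophil markers rose (55.8 to 309 against 6.06 to 22.7 CPM). Of 6 fibroblast markers 4 rose (10.4 to 32.3 against 4.25 to 12.9 CPM), and of 6 thymic epithelial markers found, 1 rose and 1 fell (42.8 to 116 against 41.4 to 60.8 CPM). Of 5 endothelial markers tested 1 rose (151 to 161 against 144 to 158 CPM), and none of the 6 erythroid markers was called (228 to 2250 against 352 to 1854 CPM). The part of these cells in the differences given for the 10 genes was not tested.

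Against wild type, 6 of the 10 genes changed in homozygous KO. Usp7 fell, and Mdm2, Trim27, Dnmt1, Uhrf1 and Clspn rose, by 0.24 to 0.57 on the log2 scale. Over all features tested 25.8% were called in this comparison, 12.5% as higher (2446 features) and 13.2% as lower (2584 features). With library totals alone as scaling the split was 1435 higher and 3506 lower, and the median of all features moved to -0.11. The median log2 fold change of the 10 genes was 0.18, beside -0.01 over all features. Trp53, Mdm4, Daxx and Rad18 did not pass the test. In bulk thymus, fewer cells of a type and less RNA per cell cannot be told apart. In 6 of the 10 genes, the same 6, the libraries of the 2 groups did not overlap, which was so for 32.7% of all features. No gene of the 10 passed the test in heterozygous KO against wild type, where 0.0154% of all features did. DESeq2 also called none of the 10 there. With edgeR 3 of the 10 (Usp7, Mdm4 and Rad18) had an unadjusted p under 0.05, beside 1421 of all 19511 features. The 2 groups did not overlap for 4 of the 10, beside 8.69% of all features. Homozygous KO against heterozygous KO called 5 of the 10 (Usp7 lower, and Mdm2, Mdm4, Trim27 and Uhrf1 higher), beside 17.1% of all features, and 8 of the 10 did not overlap, beside 33.3%. These comparisons share libraries, and their values are given side by side.

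**Figure D1:**
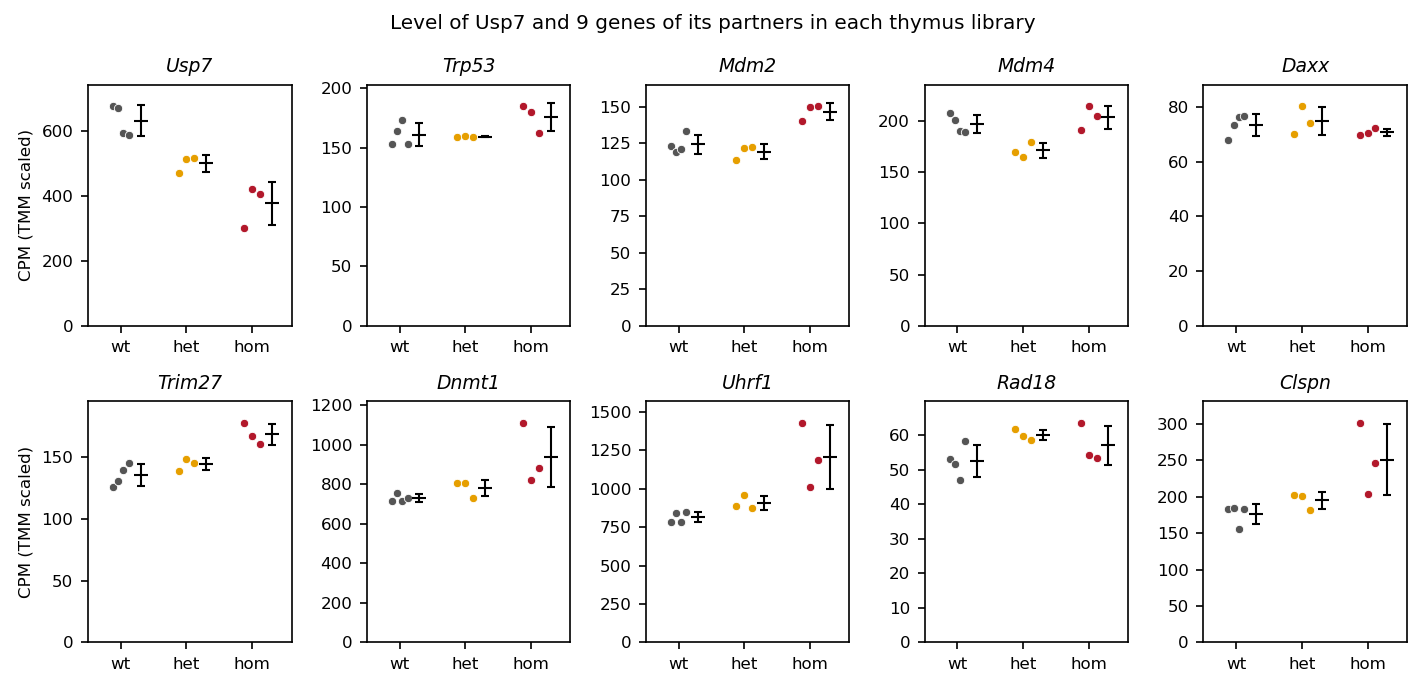
Level of each of the 10 genes in CPM (TMM scaled, axes from 0) in each wild-type (wt, n = 4), heterozygous KO (het, n = 3) and homozygous KO (hom, n = 3) library, with the mean and SD of each group as a bar to the right of its points. Usp7 falls from 589 to 676 CPM in wild type to 303 to 422 CPM in homozygous KO, while the homozygous KO libraries of Mdm2, Trim27, Dnmt1, Uhrf1 and Clspn all lie above the wild types.

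Usp7, the targeted gene, was measured at 303, 422 and 408 CPM in homozygous KO, at 472, 516 and 516 CPM in heterozygous KO and at 676, 670, 594 and 589 CPM in wild type. The 3 groups did not overlap, and homozygous KO replicate 1 had the lowest level. The mean was 377 ± 65.1 CPM (SD, n = 3) in homozygous KO, 59.7% of the wild-type mean of 633 ± 47.2 CPM (SD, n = 4). In heterozygous KO it was 501 ± 25.4 CPM (SD, n = 3), or 79.2% of the wild-type mean. The wild types at 594 and 589 CPM, replicates 3 and 4, have 1 wt word in their titles and the word het in their column names, while replicates 1 and 2, at 676 and 670 CPM, have 2 wt words in both. The pairs also differ in depth, at 39.8 and 41.0 M counts for replicates 1 and 2 and 86.4 and 81.0 M for replicates 3 and 4. The part of depth in differences between the pairs was not tested. The titles were followed, so the wild-type mean holds both pairs, and alternatives with either pair alone are given where they end a call. Usp7 fell in homozygous KO against wild type (log2 fold change -0.74, SE 0.11, adjusted p = 0.000525 with edgeR). Against wild type the heterozygous difference was -0.34 (95% interval -0.57 to -0.10), with an unadjusted edgeR p of 0.00886 that did not pass the adjustment (adjusted p = 0.608). It was lower in homozygous than in heterozygous KO by -0.41 (SE 0.11, adjusted p = 0.0288 with edgeR), a call that was lost without heterozygous KO replicate 2 (adjusted p = 0.0765) or replicate 3 (adjusted p = 0.0915), with those groups alone in the fit (adjusted p = 0.0614) and with Xist as a covariate (adjusted p = 0.0599). On the log2 scale the heterozygous level lay 0.04 from the midpoint of the other groups (95% interval -0.17 to 0.25). Usp7 RNA was thus present in every homozygous KO library. Reads of cells that kept the gene and reads of a deleted but transcribed allele cannot be told apart in counts per gene.

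Usp7 (ENSMUSG00000022710) lies on chromosome 16 at 8689595 to 8792308, minus strand, in GENCODE's annotation of GRCm38, the build of all gene positions given here. The 3 nearest tested protein-coding genes on the side of lower coordinates were Tmem186, Pmm2 and Carhsp1, and on the other side 1810013L24Rik, Rpl39l and Emp2, the last 2 of them more than 1 Mb away. Carhsp1, 17.4 kb from Usp7, rose in homozygous KO against wild type (35.2 CPM in wild type, 41.5 in heterozygous KO and 56.9 in homozygous KO, log2 fold change 0.69, SE 0.16, adjusted p = 0.00963 with edgeR). Emp2 also rose, at a low level (0.305 against 0.862 CPM, log2 fold change 1.47, adjusted p = 0.0252 with edgeR). For the other 4, edgeR's adjusted p was between 0.394 and 0.908, and none of the 6 was called in heterozygous KO. The 5 genes whose log2 level followed that of Usp7 most closely over the 10 libraries, of 9632 genes searched, were Tfpi, Rab11fip4, Zc3h12d, Asb13 and Sema7a, with a root mean square difference of 0.0883 to 0.121 on the log2 scale after each profile was centred on its mean.

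Per kilobase of exon, the wild-type libraries ordered the 10 genes as Uhrf1 (191 ± 8.07 CPM per kb), Dnmt1 (98.9 ± 2.61), Usp7 (81.5 ± 6.08), Trp53 (39.8 ± 2.44), Trim27, Clspn, Mdm2, Daxx, Mdm4 and Rad18 (SD, n = 4). Trim27, Clspn, Mdm2 and Daxx, with means of 24.6, 24.6, 24.4 and 23.3 CPM per kb, had ranges that overlapped and are not ordered beyond their spread. Mdm4 was at 13.3 and Rad18 at 9.06 CPM per kb. The length was the union of annotated exons in GENCODE.

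The p53 group holds the transcription factor p53 itself, the ligase MDM2 that marks it for degradation, and MDM4, which binds p53 and holds its activity down. Trp53 (chromosome 11, 69580359 to 69591873) was at 185, 180 and 162 CPM in homozygous KO, at 159, 160 and 159 CPM in heterozygous KO and at 153, 164, 173 and 153 CPM in wild type. Both knockouts overlapped the wild types, and 2 of the homozygous KO libraries lay above all of them. Homozygous KO differed from wild type by 0.13 (95% interval -0.00 to 0.26, adjusted p = 0.143 with edgeR) and heterozygous KO by -0.02 (95% interval -0.15 to 0.12).

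Mdm2 (chromosome 10, 117688875 to 117710758) was at 140, 150 and 150 CPM in homozygous KO, at 113, 122 and 122 CPM in heterozygous KO and at 123, 119, 121 and 133 CPM in wild type. The homozygous KO libraries lay above the other 7. Mdm2 rose in homozygous KO against wild type (log2 fold change 0.24, SE 0.05, adjusted p = 0.00793 with edgeR) and against heterozygous KO (0.30, SE 0.06, adjusted p = 0.0049). The first call was lost with library totals alone as scaling (0.15, adjusted p = 0.0783) and with only the 2 wild types whose titles hold a single wt word (0.21, adjusted p = 0.0934). Its heterozygous difference from wild type was -0.06 (95% interval -0.18 to 0.06).

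Mdm4 (chromosome 1, 132959484 to 133030561) was at 191, 214 and 205 CPM in homozygous KO, at 170, 165 and 179 CPM in heterozygous KO and at 207, 201, 190 and 190 CPM in wild type. The heterozygous KO libraries were the lowest, below all 7 others. Mdm4 was higher in homozygous than in heterozygous KO (log2 fold change 0.25, SE 0.06, adjusted p = 0.0143 with edgeR), a call lost with library totals alone as scaling (adjusted p = 0.0986) and without heterozygous KO replicate 2 (adjusted p = 0.0585). Its heterozygous level departed from the midpoint of the other groups (-0.23, SE 0.05, adjusted p = 0.0331 with edgeR), as did that of 3.83% of all features and of no other gene of the 10 in this fit. Mdm2, at -0.18 (adjusted p = 0.0806), passed with the number sets as a block (-0.20, adjusted p = 0.0057) and with DESeq2 (adjusted p = 0.0201). The Mdm4 call was lost under 11 of 20 alternatives, including the omission of any of the heterozygous KO libraries. Over all alternatives its adjusted p was 0.00149 to 0.179 (edgeR, or DESeq2 for that alternative). Against wild type the heterozygous difference was -0.20 (95% interval -0.33 to -0.08, unadjusted p = 0.00382 and adjusted p = 0.568 with edgeR), and the homozygous one 0.05 (95% interval -0.08 to 0.17).

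Among 13 other genes that control p53, 4 rose and 1 fell in homozygous KO against wild type, with a median log2 fold change of 0.13. Over all features, 12.5% rose and 13.2% fell in this comparison. Ppm1d, a phosphatase that turns p53 signalling down, rose by 0.32 (SE 0.05, adjusted p = 0.00103 with edgeR), the kinase gene Hipk2 by 0.28 and Usp10, another deubiquitinase of p53, by 0.25. Cdkn2a, whose ARF product inhibits MDM2, is named after its values were seen because its average level was under the limit for naming. It rose from 0.0978 ± 0.0855 to 1.07 ± 0.148 CPM in homozygous KO (SD, adjusted p = 0.000589 with edgeR). The wild-type level was close to the 0.0347 to 0.0753 CPM that 3 counts make in those libraries. Counts per gene do not tell ARF from other products of Cdkn2a. Trp53bp1, which encodes a p53-binding DNA repair factor, fell by 0.26 on the log2 scale (adjusted p = 0.00843).

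Of 22 p53 target genes, 16 rose and 0 fell in homozygous KO against wild type, with a median log2 fold change of 1.03. The shares over all features were 12.5% higher and 13.2% lower. Phlda3, the gene of an inhibitor of AKT signalling, rose by 3.51 (from 2.26 ± 0.307 to 25.7 ± 5.53 CPM). Zmat3, which encodes an RNA-binding zinc finger protein, rose by 3.20 (from 25.6 ± 2.11 to 237 ± 35.8 CPM), and Pmaip1, which encodes the pro-apoptotic protein NOXA, by 2.78 (from 7.16 ± 0.754 to 49.1 ± 4.34 CPM, adjusted p = 1.24e-06 with edgeR). Mdm2 is itself a p53 target, and 18 of the 22 had a larger log2 fold change than Mdm2, 16 of them called. In heterozygous KO against wild type edgeR called none of the 22, and the median was 0.11. An unadjusted edgeR p under 0.05 was found for 5 of the 22, beside 1421 of all 19511 features. Of these, Pmaip1, Zmat3, Phlda3 and Gdf15 were higher and Sesn1 was lower. Gdf15 and Sesn1 are named after their values were seen. DESeq2 called 1 of the 22 there, Pmaip1, named after its values were seen (log2 fold change 0.69 and adjusted p = 0.522 in the edgeR fit). The list was written with earlier results of these data known, and its direction is no independent evidence.

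Daxx encodes a chaperone of the histone variant H3.3 that also binds MDM2 and USP7. Daxx (chromosome 17, 33909414 to 33915590) was at 69.7, 70.6 and 72.2 CPM in homozygous KO, at 70.2, 80.2 and 74.3 CPM in heterozygous KO and at 67.8, 73.3, 76.2 and 76.6 CPM in wild type. All groups overlapped. Homozygous KO differed from wild type by -0.05 (95% interval -0.19 to 0.08) and heterozygous KO by 0.03 (95% interval -0.11 to 0.16). Of 5 genes of DAXX partners 2 fell in homozygous KO against wild type, Sp100, a nuclear body protein gene, from 171 ± 3.52 to 72.6 ± 2.57 CPM (log2 fold change -1.24, SE 0.05, adjusted p = 1.23e-07 with edgeR), and the H3.3 gene H3f3b by 0.26 on the log2 scale (adjusted p = 0.0164). The other 3, Pml, Atrx and H3f3a, did not pass edgeR's test (adjusted p of 0.115 to 0.838). In this comparison 13.2% of all features fell.

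Trim27 (chromosome 13, 21179445 to 21194724) was at 178, 167 and 161 CPM in homozygous KO, at 139, 148 and 145 CPM in heterozygous KO and at 126, 131, 140 and 145 CPM in wild type. Every homozygous KO library was above every other library. It rose in homozygous KO against wild type (log2 fold change 0.32, SE 0.06, adjusted p = 0.00284 with edgeR), a call kept under all the alternatives tried, with adjusted p-values up to 0.0444. Against heterozygous KO the difference was 0.22 (SE 0.06, adjusted p = 0.0335), a call lost without any 1 of 6 libraries (replicate 1 or 2 of homozygous KO, any of heterozygous KO, or replicate 2 of wild type), with an adjusted p of up to 0.132 then, and with library totals alone, no filter on low counts, those groups alone in the fit or Xist as a covariate. The heterozygous level differed from wild type by 0.09 (95% interval -0.04 to 0.22). Trim27 is the gene of a protein that USP7 stabilises, and its RNA moved in the opposite direction to that of Usp7 in homozygous KO.

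DNMT1 copies DNA methylation to the new strand after replication, and UHRF1 binds hemimethylated DNA and brings DNMT1 to it. Claspin, the product of Clspn, passes the signal of stalled replication forks from the kinase ATR to CHK1, and RAD18 ubiquitinates PCNA at such forks so that lesions can be bypassed. Transcripts of Uhrf1, Dnmt1 and Clspn are known to be higher in dividing cells. The sequence around the start of transcription is shown for these 3 genes because they rose together and because they were the members with a match to any of the E2F-type motifs searched (TTTCCCGC, TTTGGCGC and TTTCGCGC, on both strands). The sequences are RefSeq's for GRCm38.p6, from 250 bases before to 50 bases after the start, 5′ to 3′ on the gene's strand, with matches to these motifs and to CCAAT in capitals. A run of capitals can hold overlapping matches or be the reverse complement.
Uhrf1, chr17:56304063-56304362, plus strand: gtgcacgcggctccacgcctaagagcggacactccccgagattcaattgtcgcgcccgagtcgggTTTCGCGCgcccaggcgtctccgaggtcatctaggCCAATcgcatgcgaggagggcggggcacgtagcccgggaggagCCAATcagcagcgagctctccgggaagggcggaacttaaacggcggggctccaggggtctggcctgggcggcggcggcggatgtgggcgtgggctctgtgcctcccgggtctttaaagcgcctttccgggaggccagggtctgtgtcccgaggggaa
Dnmt1, chr9:20952574-20952873, minus strand: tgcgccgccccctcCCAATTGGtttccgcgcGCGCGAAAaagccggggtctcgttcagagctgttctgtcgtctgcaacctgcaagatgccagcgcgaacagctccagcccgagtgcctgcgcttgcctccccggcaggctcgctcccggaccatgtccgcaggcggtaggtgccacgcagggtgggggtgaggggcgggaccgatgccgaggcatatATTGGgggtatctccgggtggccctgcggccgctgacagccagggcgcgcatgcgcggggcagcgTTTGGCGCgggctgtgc
Clspn, chr4:126556730-126557029, plus strand: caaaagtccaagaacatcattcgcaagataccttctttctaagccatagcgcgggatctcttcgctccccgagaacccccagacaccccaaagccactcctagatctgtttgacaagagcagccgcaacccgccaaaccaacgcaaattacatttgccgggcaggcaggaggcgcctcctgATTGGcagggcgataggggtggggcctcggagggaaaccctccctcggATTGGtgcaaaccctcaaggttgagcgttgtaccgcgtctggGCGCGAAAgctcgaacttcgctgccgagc
TTTCGCGC lay at -185 in Uhrf1, at -219 in Dnmt1 and at 22 in Clspn, counted from the start, and TTTGGCGC at 34 in Dnmt1. The other start of Uhrf1 and the other 2 of Dnmt1 in the table held no E2F-type motif. An E2F-type motif was in 1.84% of the 32817 promoters of the table. Counted by promoter, it was in 3 of 17 of the 10 genes described. It was in 7 of 23 promoters of the S phase genes and in 0 of 24 of the p53 targets. Counted by gene, these were 3 of 10, 7 of the 19 S phase genes with a promoter there and 0 of the 17 p53 targets. CCAAT was in 37.4% of promoters. A match is a description of these letters, and no factor was measured.

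Uhrf1 (chromosome 17, 56303321 to 56323486) was at 1427, 1013 and 1183 CPM in homozygous KO, at 885, 961 and 874 CPM in heterozygous KO and at 786, 841, 783 and 847 CPM in wild type. The 3 groups did not overlap, and homozygous KO replicate 1 was the highest. Uhrf1 rose in homozygous KO against wild type (log2 fold change 0.57, SE 0.10, adjusted p = 0.00151 with edgeR), the largest rise among the 10, and the call held in every alternative tried. Against heterozygous KO the difference was 0.41 (SE 0.10, adjusted p = 0.0188), a call lost without heterozygous KO replicate 1 (adjusted p = 0.0743) or replicate 3 (adjusted p = 0.076) and with those groups alone in the fit (adjusted p = 0.0715). The heterozygous difference from wild type was 0.16 (95% interval -0.06 to 0.37).

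Dnmt1 (chromosome 9, 20907209 to 20959888) was at 1110, 819 and 880 CPM in homozygous KO, at 804, 804 and 732 CPM in heterozygous KO and at 715, 756, 716 and 732 CPM in wild type. The homozygous KO libraries were above all others, by a narrow margin for replicate 2. Dnmt1 rose in homozygous KO against wild type (log2 fold change 0.36, SE 0.09, adjusted p = 0.0135 with edgeR). Without homozygous KO replicate 1 the difference was 0.22 (adjusted p = 0.0266), and with only 1 of the 2 pairs of wild types, by title form, the call was lost (adjusted p = 0.0831 and 0.0745). Against heterozygous KO it was 0.26 higher (adjusted p = 0.0912), which passed with the number sets as a block (adjusted p = 0.0481 with edgeR) and without homozygous KO replicate 2 (0.35, adjusted p = 0.0334), and was 0.115 without homozygous KO replicate 1. Heterozygous KO differed from wild type by 0.10 (95% interval -0.10 to 0.30).

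Of 12 other genes that write, read or remove DNA methylation, 0 rose and 3 fell in homozygous KO against wild type, with a median of -0.02. Over all features tested, 12.5% rose and 13.2% fell in this comparison. The 3 genes that fell included Tet2 and Tet1, which encode enzymes that oxidise methylated cytosine. Tet2 fell from 61.7 ± 3.62 to 29.7 ± 1.14 CPM (log2 fold change -1.06, SE 0.09, adjusted p = 1.28e-05 with edgeR) and Tet1 from 99.3 ± 9.41 to 69.4 ± 1.42 CPM (-0.52, adjusted p = 0.000862). The edgeR test called none of the 12 in heterozygous KO, none had an unadjusted p under 0.05, and DESeq2 called none.

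Clspn (chromosome 4, 126556935 to 126593903) was at 302, 204 and 247 CPM in homozygous KO, at 203, 201 and 182 CPM in heterozygous KO and at 183, 185, 155 and 183 CPM in wild type. The homozygous KO libraries were above all others, replicate 2 by less than 2 CPM over the highest heterozygous KO library. Clspn rose in homozygous KO against wild type (log2 fold change 0.51, SE 0.11, adjusted p = 0.00687 with edgeR), to 0.35 without homozygous KO replicate 1 (adjusted p = 0.0184). The call was lost with only the 2 wild types that have 2 wt words in the title (0.45, adjusted p = 0.0526). Against heterozygous KO the difference of 0.36 did not pass edgeR's test (adjusted p = 0.0639). It did with the number sets as a block (adjusted p = 0.0428), with DESeq2 (adjusted p = 0.0294) and without homozygous KO replicate 2 (0.49, adjusted p = 0.00951), and it was 0.20 without homozygous KO replicate 1. Heterozygous KO differed from wild type by 0.15 (95% interval -0.10 to 0.39). The Clspn locus overlaps a feature of the opposite strand, Gm12936, whose average level was 0.65 CPM.

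Rad18 (chromosome 6, 112619850 to 112696686) was at 63.6, 54.2 and 53.5 CPM in homozygous KO, at 61.7, 59.8 and 58.6 CPM in heterozygous KO and at 53.01, 51.8, 47.1 and 58.3 CPM in wild type. The homozygous KO libraries overlapped both other groups, while the heterozygous KO libraries were all above the wild types. Homozygous KO differed from wild type by 0.12 (95% interval -0.06 to 0.30, adjusted p = 0.317 with edgeR) and heterozygous KO by 0.19 (95% interval 0.01 to 0.37, adjusted p = 0.675). In homozygous KO against wild type 12.5% of all features rose and 13.2% fell. Of 18 other genes of the replication checkpoint and of lesion bypass, 5 rose and 1 fell there, with a median of 0.08. Those that rose were the bypass polymerase gene Rev1 (0.45, adjusted p = 0.000233 with edgeR), Usp1, whose product deubiquitinates PCNA (0.36, adjusted p = 0.00721), Tipin (0.34, adjusted p = 0.0162), Topbp1 (0.32) and Timeless (0.32), the last 2 named after their values were seen. Ube2b, whose product is the ubiquitin-conjugating partner of RAD18, fell by 0.21 on the log2 scale (adjusted p = 0.0125).

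**Figure D2:**
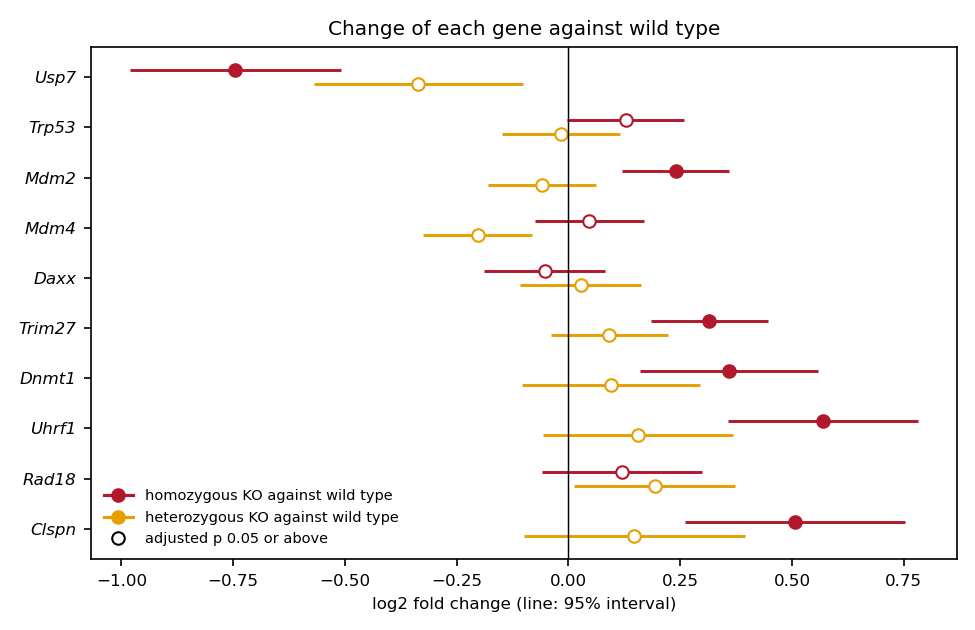
Log2 fold change of the 10 genes against wild type (points) with the 95% interval from the edgeR fit (lines), for homozygous and heterozygous KO. Filled points passed the adjusted p of 0.05, which 6 genes did in homozygous KO and none in heterozygous KO.

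Genes of DNA replication moved in the same direction as Uhrf1, Dnmt1 and Clspn. As a background, 12.5% of all features rose and 13.2% fell in homozygous KO against wild type. Of 24 S phase genes 21 rose and 0 fell in homozygous KO against wild type, with a median log2 fold change of 0.39, led by Rrm2 (0.58, adjusted p = 0.0112 with edgeR), which encodes a subunit of the enzyme that makes deoxynucleotides, and the histone chaperone gene Chaf1a (0.54, adjusted p = 0.00213). The count was 5 with only the wild types with 1 wt word in the title and 13 with only those with 2. The summed level of the 24 was 5687 to 7481 CPM in homozygous KO, 5237 to 5612 CPM in heterozygous KO and 4660 to 5151 CPM in wild type, with the highest value in homozygous KO replicate 1. Of the 24, 1 had a larger log2 fold change than Uhrf1, 2 than Clspn and 15 than Dnmt1. In heterozygous KO against wild type edgeR and DESeq2 called none of the 24, and the median was 0.14. There 2 of the 24 had an unadjusted edgeR p under 0.05, beside 1421 of all 19511 features. In homozygous against heterozygous KO 3 of the 24 rose and 0 fell, with a median of 0.26, where 17.1% of all features were called. The count of rises there was 6 with DESeq2, 0 with library totals alone and 0 to 13 when a library was left out. The genes whose profile over the 10 libraries was closest were Ube2c, Aurka and Smtn for Uhrf1 (root mean square difference 0.0337 to 0.0443), Mcm4, Ctdspl2 and Timeless for Dnmt1 (0.0362 to 0.042) and Dlgap5, Kif11 and Ncaph for Clspn (0.03 to 0.0346), all on the log2 scale. For Mdm2 they were D5Ertd579e, Ewsr1 and Sfswap, for Mdm4 Parp6, Fnbp4 and Hdac7, and for Trim27 Cct7, Ndufa11 and Nudt9.

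The ratio of each replication gene to the geometric mean of the 24 S phase genes in the same library was compared after the values had been seen. For Dnmt1 this log2 ratio was 2.48 ± 0.0259 in homozygous KO and 2.51 ± 0.0566 in wild type (SD, exact two-sided permutation p = 0.543), and for Clspn 0.58 ± 0.0898 and 0.46 ± 0.0755 (exact p = 0.143). The Uhrf1 ratio was higher in all 3 homozygous KO libraries than in every wild type (2.85 ± 0.0564 against 2.66 ± 0.0285). Its exact p of 0.0286 is the smallest that 3 against 4 libraries allow, and it was 0.171 after adjustment over 12 such tests. The Rad18 ratio was lower in all 3 (-1.54 ± 0.0915 against -1.29 ± 0.0685, exact p = 0.0286, adjusted 0.171).

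**Figure D3:**
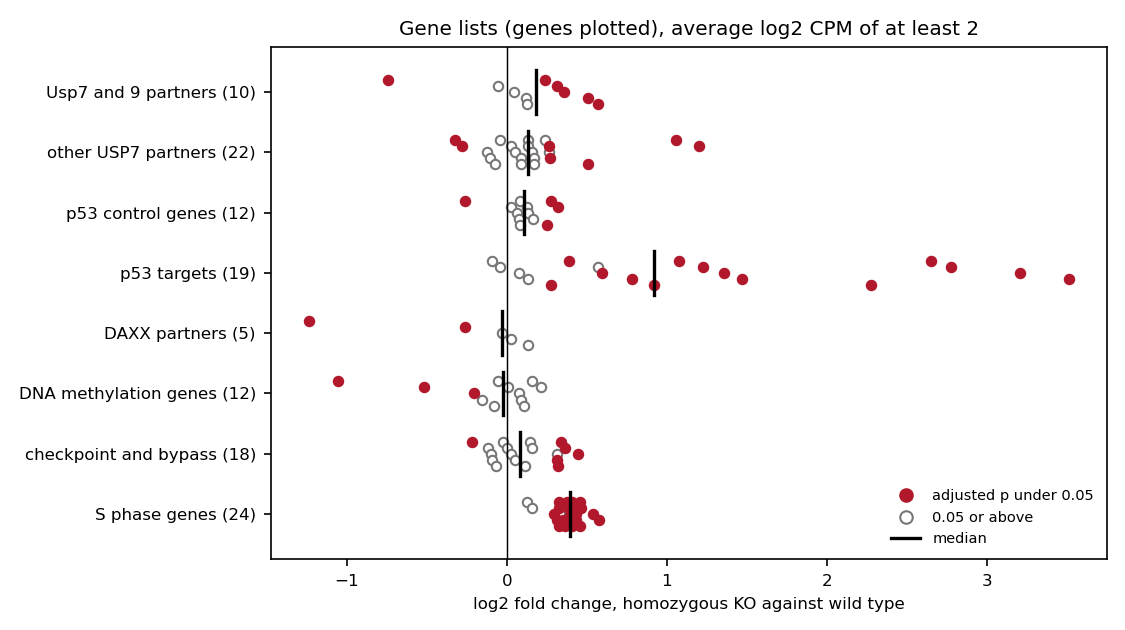
Homozygous KO against wild type, as the log2 fold change of single genes of each list whose log2 CPM averaged 2 or more (number plotted in parentheses), with the median of the plotted genes as a bar. Filled points passed the adjusted p of 0.05, and the p53 targets and S phase genes lie almost wholly above 0.

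Among 23 tested genes of other USP7 partners, 5 rose and 3 fell in homozygous KO against wild type, with a median of 0.13. Beside them, 12.5% of all features rose and 13.2% fell. The transcription factor gene Mycn rose from 8.03 ± 0.827 to 18.5 ± 2.06 CPM (log2 fold change 1.20, SE 0.11, adjusted p = 2.61e-05 with edgeR), and the receptor gene Notch1, which directs T cell fate, from 1098 ± 88.5 to 2286 ± 511 CPM (1.06, SE 0.13, adjusted p = 0.000143). Rnf169, the gene of a ligase of the DNA damage response, rose by 0.51 (adjusted p = 0.000353), and Foxo4 and Rb1, named after their values were seen, by 0.27 and 0.26. Bmi1, a Polycomb gene, and Ercc6, a gene of transcription-coupled repair, fell by 0.32 and 0.28 on the log2 scale (adjusted p = 0.0309 and 0.011 with edgeR). Foxp3, the regulatory T cell factor, also fell (from 5.10 ± 1.09 to 1.61 ± 0.502 CPM, adjusted p = 0.000678) and is named after its values were seen. None of the 23 was called in heterozygous KO against wild type by edgeR or DESeq2. There 1 of the 23 had an unadjusted edgeR p under 0.05, beside 1421 of all 19511 features.

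Ratios of counts of a pair of genes within a library do not depend on how libraries are scaled, and 6 ratios were compared in 3 comparisons, 18 tests. With 3 against 4 libraries the exact two-sided permutation test cannot go below p = 0.0286, and with 3 against 3 not below 0.1, and no ratio passed after adjustment (smallest adjusted p = 0.129). The log2 ratio of Mdm2 to Trp53 was -0.26 ± 0.143 in homozygous KO, -0.42 ± 0.058 in heterozygous KO and -0.37 ± 0.146 in wild type (SD), and the groups overlapped (exact p = 0.4 for homozygous KO against wild type). The ratio of Mdm2 to Mdm4 was -0.47 ± 0.0394 against -0.67 ± 0.116 in wild type (exact p = 0.0857). Uhrf1 to Dnmt1 was higher in every homozygous KO library (0.37 ± 0.0598 against 0.16 ± 0.0368, exact p = 0.0286, adjusted 0.129). Rad18 to Clspn was lower in every homozygous KO library (-2.12 ± 0.181 against -1.75 ± 0.0797, exact p = 0.0286, adjusted 0.129). Usp7 to Trp53 was lower and Trim27 to Usp7 higher in every homozygous KO library, with differences of -0.89 and 1.07 at the same p. Usp7 is the deleted gene, and its own level did not overlap between these groups, so these ratios are no separate evidence.

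**Figure D4:**
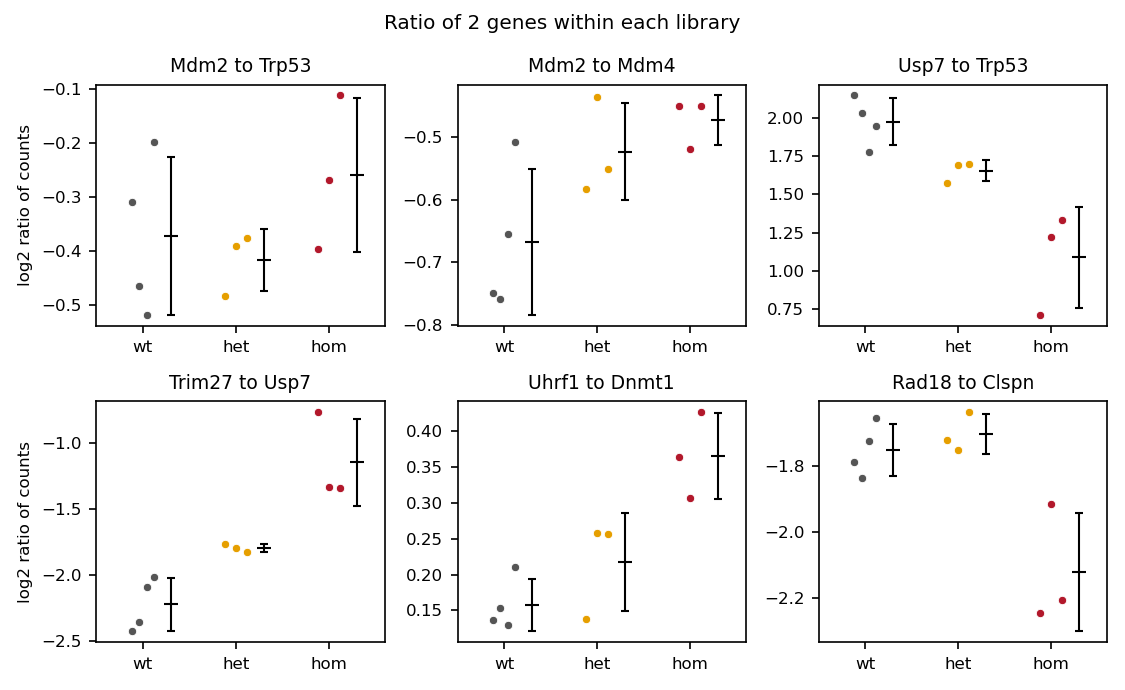
Log2 ratio of the counts of a pair of genes in each wild-type (wt, n = 4), heterozygous KO (het, n = 3) and homozygous KO (hom, n = 3) library, with the mean and SD of each group (axes do not start at 0). The homozygous KO libraries lie apart from the wild types in 4 of the 6 ratios, and overlap them for Mdm2 to Trp53 and Mdm2 to Mdm4. Of the ratios that lie apart, Usp7 to Trp53 and Trim27 to Usp7 hold the deleted gene.

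The libraries are numbered 44 to 51 or 56 to 63, and what this split stands for is not given. The lower numbers hold 1 homozygous KO library (replicate 1), 1 heterozygous KO and 3 wild types, and the higher numbers 2, 2 and 1. Within each set the difference of homozygous KO from wild type kept its direction for all 6 genes that were called. It was -1.09 and -0.51 for Usp7, 0.21 and 0.17 for Mdm2, 0.43 and 0.17 for Trim27, 0.61 and 0.21 for Dnmt1, 0.83 and 0.37 for Uhrf1 and 0.79 and 0.30 for Clspn, with the lower numbers first. For Rad18 it was 0.33 and -0.11, and for Mdm4 -0.06 and 0.15. The difference between the sets was tested as an interaction chosen after the data had been seen, and edgeR gave no adjusted p under 0.05 for any of the 10 genes in either knockout, the smallest being 0.196 for Usp7 in homozygous KO. Unadjusted, 6 of the 10 had an edgeR p under 0.05 in homozygous KO. This edgeR p was 0.000796 for Usp7, 0.00469 for Rad18, 0.00798 for Dnmt1, 0.0109 for Uhrf1, 0.0217 for Clspn and 0.0279 for Trim27. The share of all features with such an unadjusted p was not counted, so the 6 of 10 cannot be read as particular to these genes. The test rests on 1 homozygous KO library among the lower numbers and 1 wild type among the higher ones and called 8 features in all, so it does not show that the sets are alike. Without homozygous KO replicate 1 the 6 genes were still called against wild type, Usp7 with a log2 fold change of -0.61 (adjusted p = 0.000228 with edgeR).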

How the data were processed

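The 10 RNA-seq libraries of mouse thymus were grouped by the genotype in their labels. The authors deposited raw read counts per gene (35375 features, 34467 of them with an Ensembl identifier, of which 30221 matched the annotation used here). The submitters' processing notes name CASAVA, STAR 2.4.1d, HTSeq 0.6.1p1 and the builds NCBIM37 and mm9. The annotation release and the strand setting of the counting are not given in the sources used here. Gene positions and exon lengths come from GENCODE on GRCm38, which is not the build of the counting.

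The deposited counts were filtered with edgeR 4.0.16 (R 4.3.3; filterByExpr, minimum count 10, minimum total 15), scaled by TMM and fitted with the quasi-likelihood test in 1 fit over the 3 groups, with Benjamini-Hochberg adjustment over 19511 features. The fit was tested on simulated data. Ratios were tested by exact two-sided permutation (Python 3.11.15, scipy 1.17.1). Promoters are RefSeq's, and all 10 genes matched. Alternatives were DESeq2 1.42.0, RLE scaling, library totals alone, no filter, the compared groups alone, a replicate block, a block of the 2 sets of library numbers, Xist as a covariate, either pair of wild types, features with an Ensembl identifier alone and leaving out each library. The 10 genes and all lists were chosen with earlier results of these data known.

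Named genes were the 10, and of each list up to 3 called rises and 3 called falls whose log2 CPM averaged 2 or more. The 3 nearest tested protein-coding genes on each side of Usp7 were also named. So were the 5 genes with the profile closest to Usp7 and 3 for each other called gene of the 10. Of the genes this rule names, 2 are not reported here. Of the 12 pairs of libraries within a group, none agreed within sampling noise, so each was counted as 1 sample. The column names of wild-type replicates 3 and 4, the pair with 1 wt word in the title, hold the word het, and they were kept in the group of their titles.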

Additional observations from a re-analysis of the deposited data

Results flagged for a closer look

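Clspn in wild type was singled out because 1 library stood far from the other 3. Its level was 155 CPM in wild type replicate 3 and 183 to 185 CPM in the others, a gap of 0.938 of the group's range. The limit used for such a gap is one that chance passes in about 1 of 20 groups, and the cause was not tested.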

How the results depend on the processing

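Across alternatives, 202 of 210 values of single genes in homozygous KO against wild type kept their direction and side of the threshold, as did 203 of 210 in heterozygous KO against wild type, 186 of 210 in homozygous against heterozygous KO and 185 of 200 against the midpoint. Of the 10 genes, 6 were called in homozygous KO against wild type in each fit that left out a library, 5 with library totals alone and 4 with either pair of wild types. Against heterozygous KO 5 were called, but 3 with library totals alone, 2 with those groups alone in the fit, 3 with Xist as a covariate and 2 to 6 when a library was left out (3, 2 and 2 without heterozygous KO replicates 1, 2 and 3). DESeq2 called 5 as higher and 1 as lower there, and the block of number sets also called Dnmt1 and Clspn. With library totals alone the split of all features there went from 1489 higher and 1853 lower to 856 and 2330. The single midpoint call was 0 with library totals alone, with Xist as a covariate, or with the wild types with 1 wt word, 2 (Mdm2 and Mdm4) with the block of number sets and with DESeq2, and 0 to 1 when a library was left out. The cause was not tested.

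Over all features, 5030 calls in homozygous KO against wild type became 2670 with the wild types with 1 wt word, a fit with fewer samples. The 3 calls in heterozygous KO against wild type were 71 with DESeq2 and 2 to 6 when a library was left out (6 without wild type replicate 4), and the 3342 between the knockouts were 2153 to 3370. The 748 midpoint calls were 1164 with the block of number sets, 285 with Xist as a covariate, 276 with the wild types with 1 wt word, 1413 with DESeq2 and 268 to 1014 when a library was left out.

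Directions that turned were of small values. In homozygous KO against wild type, Mdm4 was -0.0471 with library totals alone and -0.0057 with the wild types with 2 wt words, where Daxx was 0.0051. In heterozygous KO against wild type, Trp53 was 0.0127 with the block of number sets, 0.0048 with the wild types with 2 wt words and -0.0397 to 0.0217 when a library was left out. Daxx was -0.0083 with that block, -0.0276 with the wild types with 1 wt word and -0.0213 to 0.0806 when a library was left out. Usp7 against the midpoint was -0.0077 with the wild types with 2 wt words and -0.0238 to 0.086 when a library was left out. Of the log2 ratios in heterozygous KO against wild type, Mdm2 to Trp53 was -0.0928 to 0.0138 when a library was left out and Rad18 to Clspn -0.0134 with the wild types with 1 wt word. Against the mean of S phase genes, Clspn was -0.0461 with the wild types with 2 wt words and -0.0186 to 0.0435 when a library was left out, Uhrf1 -0.0036 to 0.0359, and Dnmt1 between the knockouts -0.0074 to 0.041.

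Replicate numbers did not pair the libraries (correlation of deviations -0.142 to 0.299 over 9 pairs). With the replicate block, 6 of the 10 genes were called in homozygous KO against wild type and 4934 features in all, 5 genes between the knockouts, 0 against the midpoint, and 5 features in heterozygous KO against wild type.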
